A study of Mus musculus with 6 samples.

Results

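A module of 44 mouse genes that act in DNA replication and cell division was examined in vascular smooth muscle cells from which the orphan receptor gene Gprc5c had been deleted. The genes were taken by name, as the table entries whose gene symbol stood on a list of 44 well-known cell cycle genes, and all 44 were found among the 32179 genes of the deposited table. The rule used names and no expression values, but the list was drawn up with earlier results of these data known. By the known role of the protein, 14 were placed in an S phase group (DNA replication, its licensing, its nucleotide supply, and E2f1) and 28 in a mitosis group (G2, mitosis and cytokinesis, with markers of those phases). Stmn1 and Hmgb2, which act in several phases, were kept apart as 2 genes of neither group.

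The study compared bulk RNA sequencing of sorted smooth muscle cells from mouse skeletal muscle vessels, with 3 control libraries and 3 libraries labelled iSM-G5C-KO, called KO below. All animals were males described as C57BL6J and Gprc5c-floxed, aged 8 to 24 weeks, and both groups had received tamoxifen and carried the mTmG reporter, which switches from red to green fluorescence where Cre has acted. The controls' genotype is given as wild type, although their source is also described as floxed. Muscle was digested with enzymes, blood and endothelial cells were depleted on beads through CD31, CD45 and Ter119, and living EGFP-positive cells were sorted before 5 ng of total RNA went into each library. The sources used here give no promoter for Cre, and they do not say whether a library is 1 animal or a pool, so p-values below measure only the spread between these libraries.

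Cells enter the division cycle when cyclin D kinases release E2F transcription factors from the RB protein. E2F then turns on the genes of S phase, which load the MCM helicase onto origins, supply deoxynucleotides and copy the DNA. The genes of G2 and mitosis come later, through FOXM1, B-MYB and the MuvB complex, and in resting cells the DREAM complex holds both sets down. Vascular smooth muscle cells of an adult artery divide rarely, and re-enter the cycle after injury or in culture. A bulk RNA value for such genes cannot separate fewer dividing cells from less RNA per dividing cell.

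The values are whole numbers that the authors had normalised, and 1 read was worth between 0.755 and 1.4 units depending on the library. Back-calculated depth ran from 1479598 to 2935114 reads. KO library 3 and control library 3 were the shallowest. Control library 3 stood apart in the number of genes above 0, with 29707 against 20481 to 21179 in the other 5 libraries, and it listed 7733 genes at a value of 1. Gprc5c itself had values of 428, 532 and 497 in control libraries 1 to 3, set against 328, 305 and 360 in KO libraries 1 to 3. Each KO library lay below each control, and the KO mean kept 68.2% of the control mean (log2 fold change -0.55 ± 0.13 SE). That difference had an unadjusted limma p of 0.00323, a limma adjusted p of 0.999 over all genes tested, and an exact 2-sided permutation p of 0.1, the smallest that 3 libraries against 3 can give. The exons removed by the deletion are not given, so the remaining reads cannot be placed inside or outside them.

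Smooth muscle markers were abundant in all 6 libraries. Myh11, the smooth muscle myosin heavy chain, lay between 3883 and 4940, and the 10 smooth muscle markers summed to 15351 to 17949. KO library 2 had the lowest of these sums.

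The 44 cell cycle genes were set apart by 1 library. KO library 2 held the highest value of the 6 libraries for 40 of the 44 genes, among them 28 of 28 mitosis genes and 11 of 14 S phase genes. Over all 12735 genes tested, 17% were highest in that library. The mitosis genes in KO library 2 stood at a median of 5.27 times the mean of the other 5 libraries, from 2.92 times for Ube2c to 7.94 times for Aurkb. The S phase genes stood at a median of 1.98 times, from 0.736 times for Rrm1 to 5.86 times for Tk1. KO libraries 1 and 3 were on the other side of the controls: their mean lay below the control mean for 27 of 28 mitosis genes and 12 of 14 S phase genes, with a median ratio of 0.62 and 0.82.

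Summed over the 28 mitosis genes, the normalised values came to 723, 554 and 482 in control libraries 1 to 3, against 375, 2601 and 392 in KO libraries 1 to 3. The sum in KO library 2 was thus 3.6 times that of the next highest library, and KO libraries 1 and 3 held the lowest sums. The S phase sums came to 1117, 715 and 704 for controls against 828, 1182 and 699 for KO, so KO library 2 led by only 1.06 times. Rrm1 was high in control library 1, and without Rrm1 the S phase sum of KO library 2, 1003, was 1.69 times the next, which was 594 in control library 1. The groups overlapped in both sums.

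**Figure D1:**
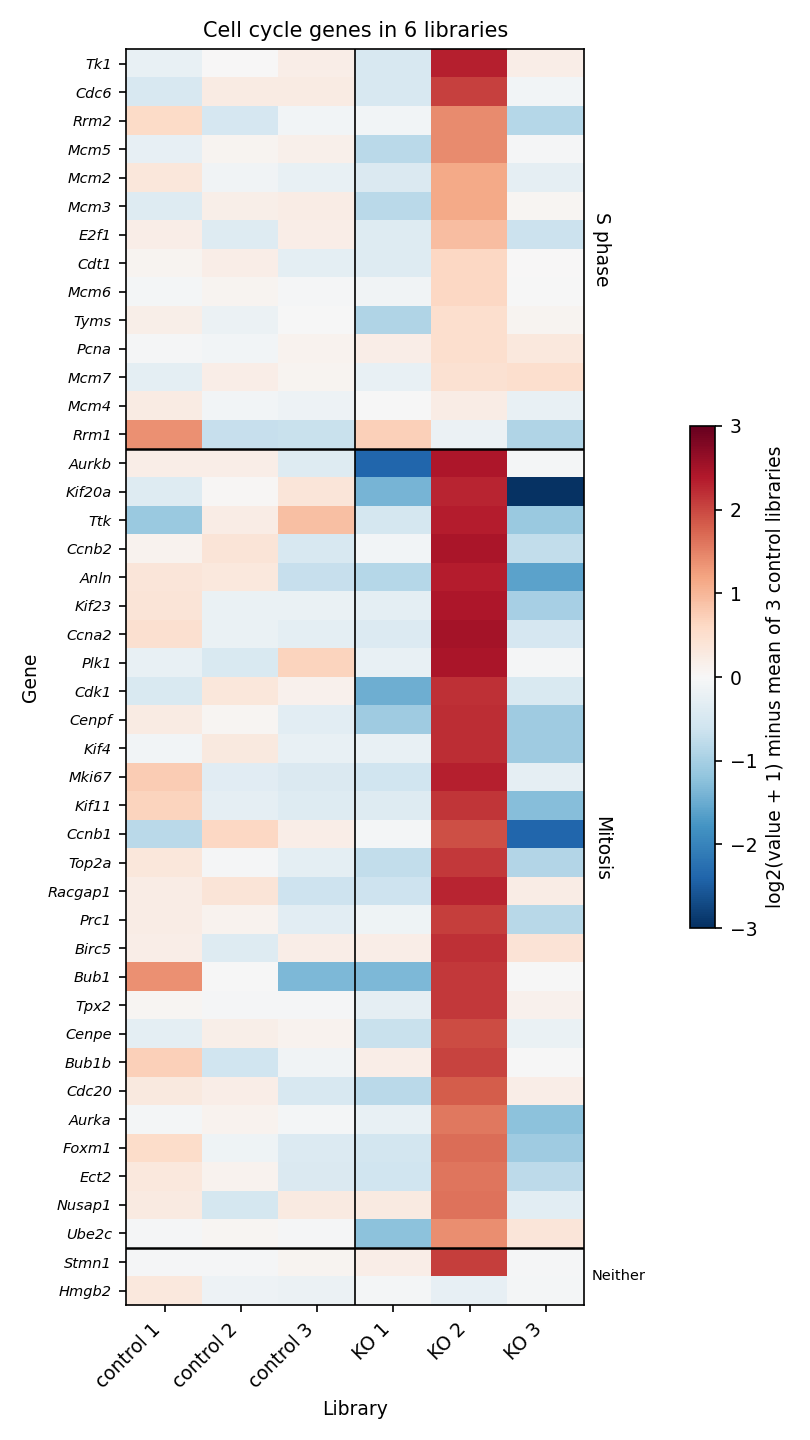
Each of the 44 genes (vertical axis) in each of the 6 libraries (horizontal axis), coloured by log2(value + 1) minus the mean of the 3 control libraries, with thick lines between the S phase, mitosis and remaining genes. KO library 2 is red for all 28 mitosis genes, while KO libraries 1 and 3 are mostly blue, and in the S phase group the red fades towards Pcna, Mcm7, Mcm4 and Rrm1.

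The promoters of the genes with the highest mean values are printed to show their motifs. All 28 mitosis genes were highest in KO library 2, against 11 of 14 S phase genes, and Rrm1 was not. A link between the motifs and the values was not tested. For each group the 3 genes of highest mean with a single promoter entry were taken, Mki67, Top2a and Cenpf for mitosis and Rrm1, Mcm6 and Pcna for S phase. Each sequence runs 5′ to 3′ in the direction of the gene, from 250 bases before to 50 bases after the RefSeq start in the build GRCm38.p6. Capitals mark 3 kinds of motif on either strand. The first is the cell cycle genes homology region or CHR, spelled TTTGAA (printed as TTCAAA when on the other strand) or with the palindrome TTCGAA. The second is the NF-Y box, spelled CCAAT (which reads ATTGG when on the other strand). The third is the E2F site, for which TTTCCCGC was searched (its complement reads GCGGGAAA when on the other strand) together with TTTGGCGC (which then reads GCGCCAAA there) besides the form TTTCGCGC (which then reads GCGCGAAA there). The CHR is the element bound by MuvB complexes, NF-Y is a constitutive activator of mitotic promoters, and E2F sites are the hallmark of G1/S promoters. The first 3 lines below are mitosis genes at chr7:135716330-135716629, chr11:99024140-99024439 and chr1:189688037-189688336, all on the minus strand. The other 3 are S phase genes at chr7:102441445-102441744 on the plus strand and at chr1:128359656-128359955 and chr2:132253131-132253430 on the minus strand.
Mki67: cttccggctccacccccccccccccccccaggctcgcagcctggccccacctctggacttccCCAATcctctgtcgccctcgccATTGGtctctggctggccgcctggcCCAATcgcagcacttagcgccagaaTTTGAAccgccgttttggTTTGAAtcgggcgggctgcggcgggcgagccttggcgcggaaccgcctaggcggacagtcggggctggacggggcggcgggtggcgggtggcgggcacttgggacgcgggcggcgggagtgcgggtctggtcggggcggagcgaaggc
Top2a: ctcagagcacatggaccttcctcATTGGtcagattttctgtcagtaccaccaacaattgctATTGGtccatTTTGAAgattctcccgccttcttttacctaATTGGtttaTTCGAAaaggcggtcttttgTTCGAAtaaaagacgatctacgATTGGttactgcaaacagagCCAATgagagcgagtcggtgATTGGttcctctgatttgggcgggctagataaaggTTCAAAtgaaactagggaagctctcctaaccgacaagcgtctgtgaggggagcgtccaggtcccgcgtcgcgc
Cenpf: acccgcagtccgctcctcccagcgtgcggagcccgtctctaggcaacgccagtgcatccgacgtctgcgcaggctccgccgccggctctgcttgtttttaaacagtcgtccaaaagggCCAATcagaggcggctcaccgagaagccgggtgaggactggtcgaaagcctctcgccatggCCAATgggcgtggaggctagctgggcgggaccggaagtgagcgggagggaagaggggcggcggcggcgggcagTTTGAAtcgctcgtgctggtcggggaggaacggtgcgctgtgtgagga
Rrm1: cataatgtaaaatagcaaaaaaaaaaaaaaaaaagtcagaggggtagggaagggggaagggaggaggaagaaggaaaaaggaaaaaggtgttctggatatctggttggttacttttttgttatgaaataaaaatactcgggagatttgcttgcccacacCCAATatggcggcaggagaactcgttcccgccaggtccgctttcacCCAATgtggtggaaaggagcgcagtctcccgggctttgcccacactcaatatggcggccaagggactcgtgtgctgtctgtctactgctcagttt
Mcm6: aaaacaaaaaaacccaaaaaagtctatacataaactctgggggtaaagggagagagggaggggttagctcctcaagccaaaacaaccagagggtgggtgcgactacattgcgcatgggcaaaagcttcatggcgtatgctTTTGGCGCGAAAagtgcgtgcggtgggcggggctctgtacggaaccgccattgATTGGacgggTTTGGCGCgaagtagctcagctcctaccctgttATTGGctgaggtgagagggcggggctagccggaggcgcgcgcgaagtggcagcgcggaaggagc
Pcna: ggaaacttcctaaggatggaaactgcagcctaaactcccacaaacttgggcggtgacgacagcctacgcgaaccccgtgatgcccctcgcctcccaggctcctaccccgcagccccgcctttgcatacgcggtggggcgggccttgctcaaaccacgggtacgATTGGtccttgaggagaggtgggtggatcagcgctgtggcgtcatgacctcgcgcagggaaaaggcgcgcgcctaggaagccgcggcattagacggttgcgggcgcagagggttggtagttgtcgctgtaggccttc

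The mitosis promoters shown carried both a CHR and NF-Y boxes. Top2a had 4 CHR matches and 6 NF-Y boxes, Mki67 had 2 and 3, and Cenpf had 1 and 2. The S phase promoters shown had no CHR match. Mcm6 held 3 E2F matches, of which 2 overlap each other, and 2 NF-Y boxes, Rrm1 held 2 NF-Y boxes and Pcna 1.

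Of the 44 genes, 37 matched a promoter entry (23 mitosis, 13 S phase and Hmgb2). The genes with none were Kif20a, Aurkb, Ccna2, Mcm4, Stmn1, Foxm1 and Tpx2. A CHR was present in 19 of 23 mitosis promoters (82.6%) and 2 of 13 S phase promoters (15.4%), against 21.7% of the 27025 genes in the RefSeq promoter table. NF-Y boxes were present in 20 of 23 mitosis genes (87%), 8 of 13 S phase genes (61.5%) and 41.1% of all genes. A CHR together with at least 2 NF-Y boxes was found in 12 of 23 mitosis genes (52.2%), 1 of 13 S phase genes (7.7%) and 3.1% of all. The E2F letters went the other way, with 6 of 13 S phase genes (46.2%: Cdc6, Cdt1, Mcm3, Mcm5, Mcm6 and Mcm7), 1 of 23 mitosis genes (4.3%, Cdk1) and 2.1% of all. A gene with several entries counted once if any entry held the motif. These matches describe letters in a window and are not measured binding sites.

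**Figure D2:**
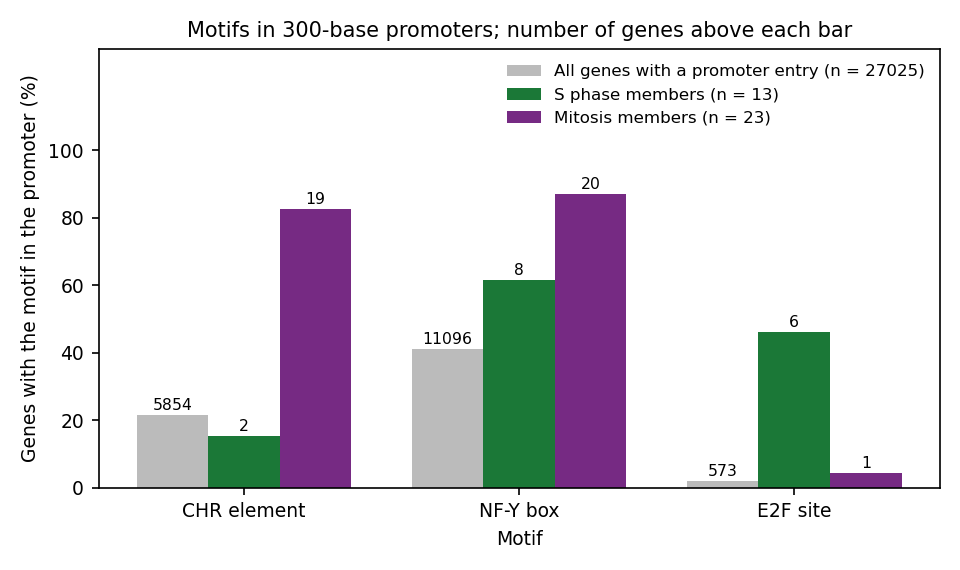
Percent of genes (vertical axis) whose promoter of 300 bases holds a CHR, an NF-Y box or an E2F site on either strand, for all 27025 genes of the promoter table (grey), 13 S phase genes (green) and 23 mitosis genes (purple), with the number of genes above each bar. The purple bar is highest for the CHR and the NF-Y box, and the green bar for the E2F site.

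Among the mitosis genes, the proliferation markers carried the most reads. Mki67, which encodes the Ki-67 antigen that coats mitotic chromosomes, had control values of 185, 85 and 80 and KO values of 71, 552 and 90 in libraries 1 to 3. KO library 2 was about 3 times the highest control by these values, whereas KO libraries 1 and 3 lay among or below the controls. The means were 116.7 ± 59.2 in controls and 237.7 ± 272 in KO (SD, n = 3 each), a log2 fold change of 0.50 ± 0.74 SE with an unadjusted limma p of 0.524. Top2a, the topoisomerase that untangles replicated chromosomes, had control values of 69, 53 and 44 and KO values of 32, 239 and 29. Here KO libraries 1 and 3 lay below each control and KO library 2 far above them, so the groups overlapped (log2 fold change 0.16 ± 0.74 SE). Both promoters are among those printed above, at the 5′ ends of the Mki67 gene (ENSMUSG00000031004, chr7:135689784-135716361) and the Top2a gene (ENSMUSG00000020914, chr11:98992943-99024189), each on the minus strand of GRCm38.

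The genes that drive entry into mitosis had the same shape at lower values. Foxm1, the transcription factor of the G2 and mitosis genes, had control values of 42, 26 and 21 and KO values of 19, 93 and 13. It was again highest in KO library 2 and lowest in KO libraries 3 and 1, with a log2 fold change of 0.01 ± 0.68 SE. Cdk1, the kinase that starts mitosis, had control values of 7, 13 and 11 and KO values of 3, 49 and 7. In KO library 1 that value stands for few reads, since 3 reads were worth 2.49 there. Ccnb1, the cyclin B partner of that kinase, had control values of 2, 7 and 5 and KO values of 4, 19 and 0. It was below the mean of 10 needed for testing, and the 0 in KO library 3 allows a value up to 4.2, which is 3 reads (counting error only). Ccna2 and Ccnb2, the cyclins A2 and B2, reached 95 and 45 in KO library 2 and at most 23 and 10 in the other 5. Plk1, the polo kinase that acts from G2 to cytokinesis, had control values of 6, 5 and 12 and KO values of 6, 44 and 7. Only KO library 2 lay outside the range of the controls for Plk1 (log2 fold change 0.74 ± 0.77 SE, unadjusted limma p 0.367).

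Spindle and kinetochore genes followed. Tpx2, which activates Aurora A kinase on the spindle, was the steadiest of the named mitosis genes in controls, with 34, 32 and 32, against 27, 146 and 36 in KO. Its control mean was 32.7 ± 1.15 and its KO mean 69.7 ± 66.3 (SD, n = 3 each), so nearly all of the spread lay in 1 KO library (log2 fold change 0.67 ± 0.56 SE, unadjusted limma p 0.272). Bub1b, the checkpoint kinase BubR1, had control values of 29, 11 and 16 and KO values of 20, 73 and 17, with the smallest unadjusted limma p of the mitosis group, 0.253 (log2 fold change 0.73 ± 0.59 SE). Nusap1, a microtubule-bundling spindle protein, had control values of 11, 6 and 11 and KO values of 11, 30 and 7. For both genes KO libraries 1 and 3 lay within the control range.

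The centromere proteins Cenpf and Cenpe were at 213 and 160 in KO library 2, against highest values of 53 and 46 elsewhere. The kinesin motors Kif11, Kif20a, Kif23 and Kif4 were at 74, 75, 85 and 48 in KO library 2 and at no more than 26 in any other library. Kif20a had control values of 11, 15 and 19 and KO values of 5, 75 and 1. The 1 in KO library 3 is below the value of 3 reads. The Aurora kinase genes were at 27 each in KO library 2, against at most 9 for Aurka and 5 for Aurkb in the other 5 libraries. Cdc20 and Ube2c, an activator of the anaphase-promoting complex and its ubiquitin-conjugating enzyme, reached 48 and 42, against at most 16 and 20.

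Of the cytokinesis genes, Racgap1, a subunit of the centralspindlin complex, had control values of 17, 19 and 9 and KO values of 9, 74 and 17 (log2 fold change 0.64 ± 0.71 SE, unadjusted limma p 0.400). Anln, the anillin of the contractile ring, had control values of 34, 33 and 16 and KO values of 14, 138 and 8, below each control in KO libraries 1 and 3. Prc1, Ect2 and Birc5 reached 104, 36 and 23 in KO library 2, each above the other 5 libraries. Bub1 was the 1 mitosis gene of 28 whose value in KO library 2, 21, was under 2 times the next highest, which was 12 in control library 1.

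**Figure D3:**
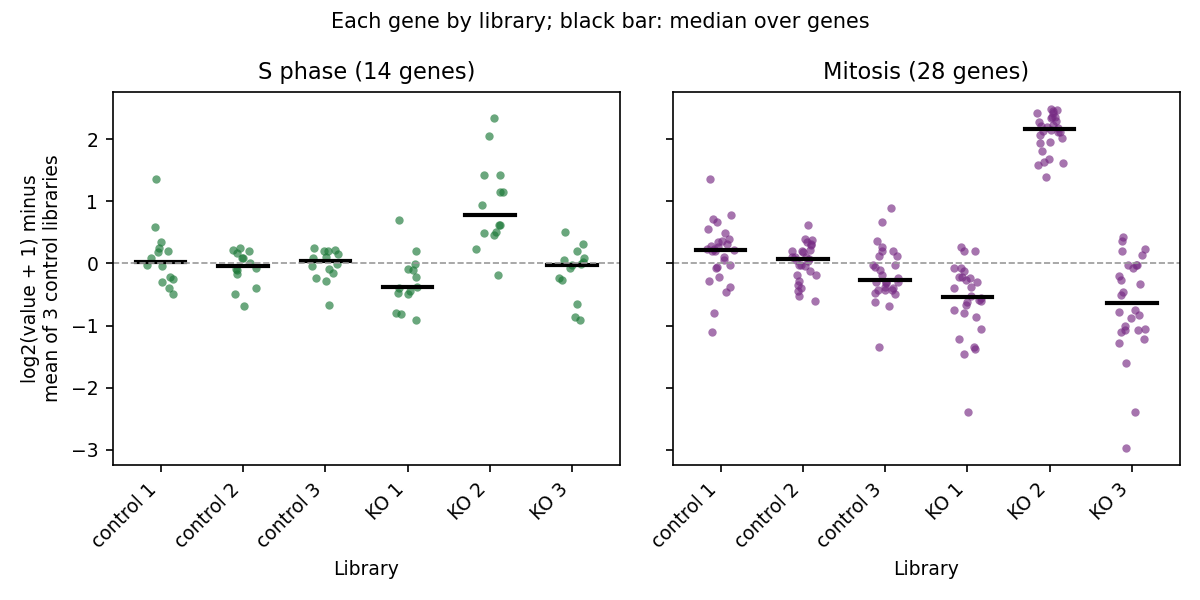
Each point is 1 gene in 1 of the 6 libraries (horizontal axis), as log2(value + 1) minus the mean of the 3 controls (vertical axis), with the 14 S phase genes on the left, the 28 mitosis genes on the right and a black bar at the median. In the mitosis panel the points of KO library 2 do not touch those of any other library, whereas in the S phase panel they overlap.

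The S phase genes were less uniform. The nucleotide supply genes differed from each other. Tk1, the thymidine kinase made in S phase, had control values of 5, 6 and 7 and KO values of 4, 34 and 7, a pattern like that of the mitosis genes (log2 fold change 0.69 ± 0.74 SE, unadjusted limma p 0.384). Rrm2, the S phase subunit of ribonucleotide reductase, had control values of 18, 8 and 11 and KO values of 11, 33 and 6, and Tyms, thymidylate synthase, had control values of 31, 24 and 27 and KO values of 14, 39 and 29. KO library 2 was highest for both, by less than 2 times over the next library. Rrm1, the large subunit of ribonucleotide reductase, had control values of 523, 126 and 127 and KO values of 332, 179 and 108. The high values of Rrm1 lay in the libraries numbered 1 of both groups and not in KO library 2.

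The helicase genes moved by smaller steps. Mcm2 had control values of 66, 48 and 44 and KO values of 38, 116 and 43, and Mcm5 had control values of 30, 38 and 40 and KO values of 20, 97 and 35. The ratio of KO library 2 to the next highest library was over 2 for Mcm5 and below 2 for Mcm2. Mcm6 had control values of 110, 121 and 111 and KO values of 106, 176 and 113. KO library 2 lay above the control range and KO library 1 just below it (log2 fold change 0.17 ± 0.20 SE, unadjusted limma p 0.430). Mcm7 had control values of 58, 82 and 76 and KO values of 61, 98 and 102, with KO library 3 highest. Mcm4 was at 155 in control library 1 and at 153 in KO library 2, and Mcm3 at 103 in KO library 2 against at most 54.

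The licensing factor Cdc6 had control values of 5, 9 and 9 and KO values of 5, 34 and 7 (log2 fold change 0.50 ± 0.71 SE, unadjusted limma p 0.505). Cdt1, which acts with Cdc6 to load the helicase, ranged from 15 to 31 with KO library 2 highest. E2f1, the transcription factor of the S phase program, had control values of 8, 5 and 8 and KO values of 5, 14 and 4, and its mean was too low for testing. Pcna, the sliding clamp of the replication fork, had control values of 52, 50 and 57 and KO values of 61, 75 and 66. It was highest in KO library 2, as most of the module was. Each KO library lay above each control, which held for 1 of the 38 tested members and for 2.69% of all genes tested. Its means were 53 ± 3.61 and 67.3 ± 7.09 (SD, n = 3 each), with a log2 fold change of 0.34 ± 0.16 SE, an unadjusted limma p of 0.0699 and a limma adjusted p of 0.999.

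Stmn1, the microtubule-destabilising stathmin, had control values of 10, 10 and 11 and KO values of 12, 47 and 10 (log2 fold change 0.75 ± 0.57 SE, unadjusted limma p 0.229). Hmgb2, a chromatin protein abundant in dividing cells, had control values of 60, 43 and 42 and KO values of 46, 40 and 46, and KO library 2 held its lowest value. Hmgb2, Rrm1, Mcm4 and Mcm7 were the 4 genes of 44 not highest in KO library 2.

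To ask whether the deletion as such went with a difference, KO was compared with control by limma on log2(value + 1) over the 12735 genes with a mean of at least 10. Of the 44 cell cycle genes, 38 could be tested (13 S phase, 23 mitosis, Stmn1 and Hmgb2). Not tested were E2f1, Birc5, Aurkb, Bub1, Ttk and Ccnb1. For 9 of the 38 the mean reached 10 only because of KO library 2, so the tested genes lean towards those high in it. None of the 38 passed a Benjamini-Hochberg adjusted p of 0.05, and each had a limma adjusted p of 0.999. Over all genes tested, limma called 0 (0%). At an unadjusted p under 0.05 there were 0 of 38 cell cycle genes, beside 131 higher and 99 lower among all genes (1.03% and 0.777%).

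The fitted differences leaned upwards, with 21 of 23 tested mitosis genes higher in KO and a median log2 fold change of 0.36 (from -0.69 for Kif20a to 0.74 for Plk1). Among tested S phase genes the same held for 10 of 13, at a median of 0.16 (from -0.13 to 0.69). The median of all genes was 0.00, with 50.2% higher. No overlap between the groups was seen for 1 of the 38 genes, Pcna, which was higher in KO, and for none that was lower, against 2.69% and 2.21% of all genes tested.

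Libraries that carry the same number deviated together over all genes, with correlations of 0.59, 0.31 and 0.44 between their deviations from the group means. Between libraries of different number the correlations ran from -0.5 to 0.16. The replicate number was therefore also fitted as a block. With the block, 1 gene of all tested passed limma at an adjusted p of 0.05 (0.00785%). It was Cd300a, an inhibitory receptor of leukocytes and no cell cycle gene, with control values of 36, 24 and 36 and KO values of 184, 146 and 141 (log2 fold change 2.27, limma adjusted p with the block 0.00407), named after its value was seen. None of the 38 cell cycle genes passed with the block, and 0 of 38 had an unadjusted p under 0.05, although 10.2% of all genes did.

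Taken pair by pair, the direction differed between numbers. For the tested mitosis genes the median log2 difference, KO minus the control of the same number, was -0.88 for number 1, 2.06 for number 2 and -0.58 for number 3. In number 1, 21 of 23 mitosis genes were lower and 0 higher. In number 2, 23 of 23 were higher, and in number 3, 17 were lower and 6 higher. For the tested S phase genes the medians were -0.42, 0.68 and -0.03, with 10 of 13 lower, 13 of 13 higher, and 7 lower beside 5 higher. The same medians over all genes were -0.02, 0 and 0.02. The median of the mitosis genes was further from 0 than that of the S phase genes in each of the 3 pairs, and for number 3 the S phase median was close to that of all genes. Genes are not replicates, and this contrast between the groups of genes was not tested.

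Without KO library 2 the direction turned. The median log2 fold change of the mitosis genes became -0.48, with 22 of 23 lower in KO, and that of the S phase genes -0.18, with 11 of 13 lower. In all, 34 of 38 were lower, and Pcna, Mcm7, Bub1b and Stmn1 were higher. Among all genes tested, 50.3% were lower without that library, at a median of -0.001. Of the 38, 9 (7 mitosis and 2 S phase genes) had reached the mean of 10 only through the library left out. None of the 38 passed limma with adjustment. At an unadjusted p under 0.05, 4 of 38 were lower, all mitosis genes, against 0.911% of all genes tested. They were Cenpf (log2 fold change -1.06, p 0.00574), Kif20a (-2.18, p 0.0129), Top2a (-0.82, p 0.0175) and Anln (-1.23, p 0.0337), by limma on 5 libraries.

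Both remaining KO libraries lay below each of the 3 controls for 10 of the 44 genes, all 10 among those tested, beside 5.21% of all genes tested. These were the mitosis genes Foxm1, Kif20a, Top2a, Cenpf, Aurka, Ect2, Ccna2, Kif23 and Anln and the S phase gene Mcm2. Aurka and Ect2 were tested only through KO library 2, with means of 7 and 9.4 in the other 5 libraries. Both lay close to the controls. KO libraries 1 and 3 had 7 and 3 against 8, 9 and 8 for Aurka, and 7 and 6 against 14, 12 and 8 for Ect2. Pcna alone lay above each control. The lower values rest on KO libraries 1 and 3, of which KO library 3 was the shallowest of the series, and on a choice of library made after the values were seen.

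**Figure D4:**
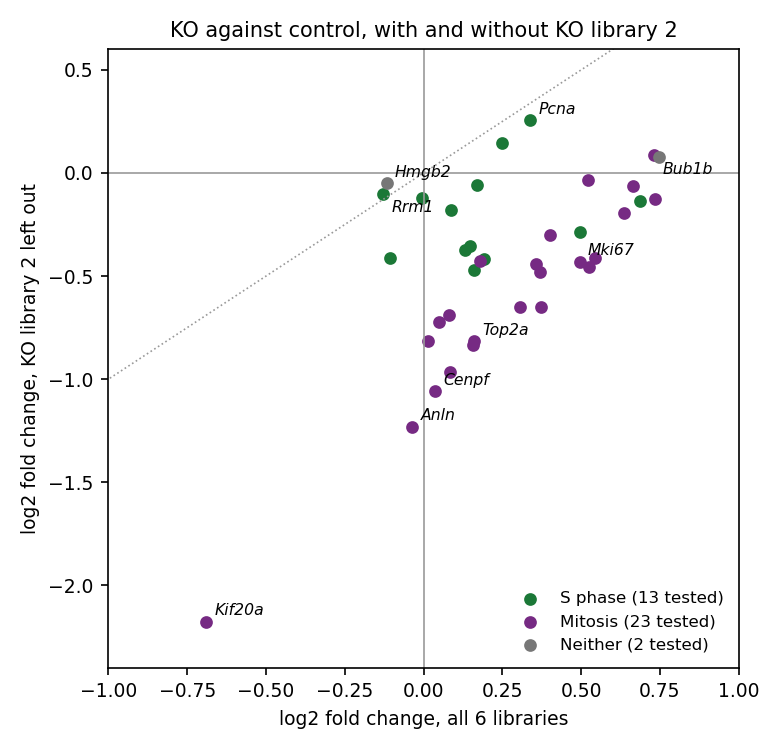
Log2 fold change of KO against control for the 38 tested genes with all 6 libraries (horizontal axis) and with KO library 2 left out (vertical axis), with S phase genes green, mitosis genes purple and the remaining 2 grey; the dotted line marks equal values. Most points lie right of 0 and below 0 at once, Kif20a is lowest on both axes, and Pcna keeps a value above 0 on both.

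Other genes of the cell cycle machinery, on lists of known function, were compared in the same way, and none of them passed limma with or without the block. Origin licensing and fork genes, 28 of 32 tested, had 22 higher and 6 lower (median 0.20 on the log2 scale). Without KO library 2 they had 14 higher and 14 lower (median 0.00). Dbf4, the activating subunit of the Cdc7 kinase, had control values of 14, 8 and 5 and KO values of 12, 34 and 20 (log2 fold change 1.19, unadjusted limma p 0.0494, limma adjusted p 0.999). Pole, the catalytic subunit of the leading-strand polymerase, had control values of 22, 31 and 28 and KO values of 33, 66 and 35, and Orc4, an origin recognition subunit, had control values of 146, 134 and 145 and KO values of 175, 155 and 165. For Pole and Orc4 each KO library lay above each control. The same held for Dsn1 and Lin9 on the further lists, and the reverse for E2f6, beside 2.69% of all genes without overlap that were higher and 2.21% that were lower.

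Kinetochore and checkpoint genes, 9 of 18 tested, had 7 higher and 2 lower (median 0.17). All 18, tested or not, were highest in KO library 2, while 2 of the 9 reached the mean of 10 only through that library. The 3 with the smallest p were Dsn1 with 23, 21 and 15 against 26, 30 and 24, Cenpn with 9, 3 and 11 against 7, 26 and 8, and Cenpa with 39, 14 and 9 against 16, 42 and 15. Spindle motors and spindle proteins, 12 of 16 tested, had 7 higher and 5 lower (median 0.04). Of all 16, 14 were highest in KO library 2, and 4 of the 12 were tested only through it. Over all genes tested, 17% were highest there. Tacc3, a spindle protein, was at 17, 23 and 16 against 28, 55 and 17, and the kinesin Kif14 at 21, 12 and 21 against 8, 28 and 4. Without KO library 2 the medians of these lists were -0.22 and -0.61, the same turn as in the mitosis genes.

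G1 cyclins and kinases, 7 of 9 tested, had 2 higher and 5 lower (median -0.03). Cdk4, the cyclin D kinase, had control values of 100, 115 and 121 and KO values of 94, 167 and 161, and Ccnd1, cyclin D1, had control values of 258, 195 and 99 and KO values of 112, 240 and 81. CDK inhibitors, 5 of 7 tested, had 2 higher and 3 lower (median -0.06). Cdkn1a, the p21 inhibitor, had control values of 245, 135 and 86 and KO values of 202, 102 and 60, lower in KO in each pair of equal number. Its unadjusted limma p was 0.448, and with the block it was 0.00724 (limma adjusted p 0.277), where 10.2% of all genes were under 0.05. The RB, E2F and DREAM list, 15 of 18 tested, had 5 higher and 10 lower (median -0.02). Condensin and cohesin genes, 13 of 13 tested, had 8 higher and 5 lower (median 0.03), with the condensin subunits Ncaph (16, 11 and 13 against 12, 53 and 15) and Ncapg (11, 3 and 5 against 2, 39 and 14) high in KO library 2. Subunits of the APC/C and SCF ubiquitin ligases, 17 of 18 tested, had 12 higher and 5 lower (median 0.05). The clustered histone genes, which are made in S phase, summed to 614, 782 and 670 over the controls and to 577, 1030 and 831 over the KO libraries, with KO library 2 highest, and 12 of the 18 tested were higher (median 0.13). Without KO library 2, 9 of the 18 were higher and their median was 0.00.

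The summed markers of other cell types did not share the shape of the mitosis sum. The 15 leukocyte markers summed to 711, 139 and 552 over the controls and to 439, 139 and 775 over the KO libraries. KO library 2 thus shared the lowest sum with control library 2, and Itgam, the integrin CD11b, was at 0 in both. The 10 satellite cell and myoblast markers summed to 352, 329 and 315 over the controls and to 340, 327 and 342 over the KO libraries. Myog, a gene of myoblasts that differentiate, had control values of 11, 5 and 4 and KO values of 5, 26 and 0, so that this single marker was highest in KO library 2 and lowest in KO library 3 as many mitosis genes were, whereas Pax7, which marks satellite cells, was at 21 in KO library 2 and at 23 to 49 in the others.

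The 12 endothelial markers summed to 679, 891 and 1088 over the controls and to 731, 1361 and 1391 over the KO libraries, so KO libraries 2 and 3 were alike. Skeletal muscle fibre markers ran from 1692 to 9465 with KO library 3 highest and KO library 2 next at 4883. Pericyte markers ran from 7602 to 14147, again with KO library 3 highest, and fibroblast markers from 5463 to 9872 with control library 3 highest. Erythroid markers other than the transferrin receptor gene Tfrc were at 17 or less in all 6 libraries, and Schwann markers summed to 469 to 575. No list of markers had KO library 2 alone at the top by its sum. By single genes, 4 of 10 fibroblast, 2 of 12 endothelial and 2 of 10 satellite cell and myoblast markers were highest there. In each other marker list it was 0 or 1, and over all genes tested 17%. The part of each cell type in the mitosis values was not tested.

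**Figure D5:**
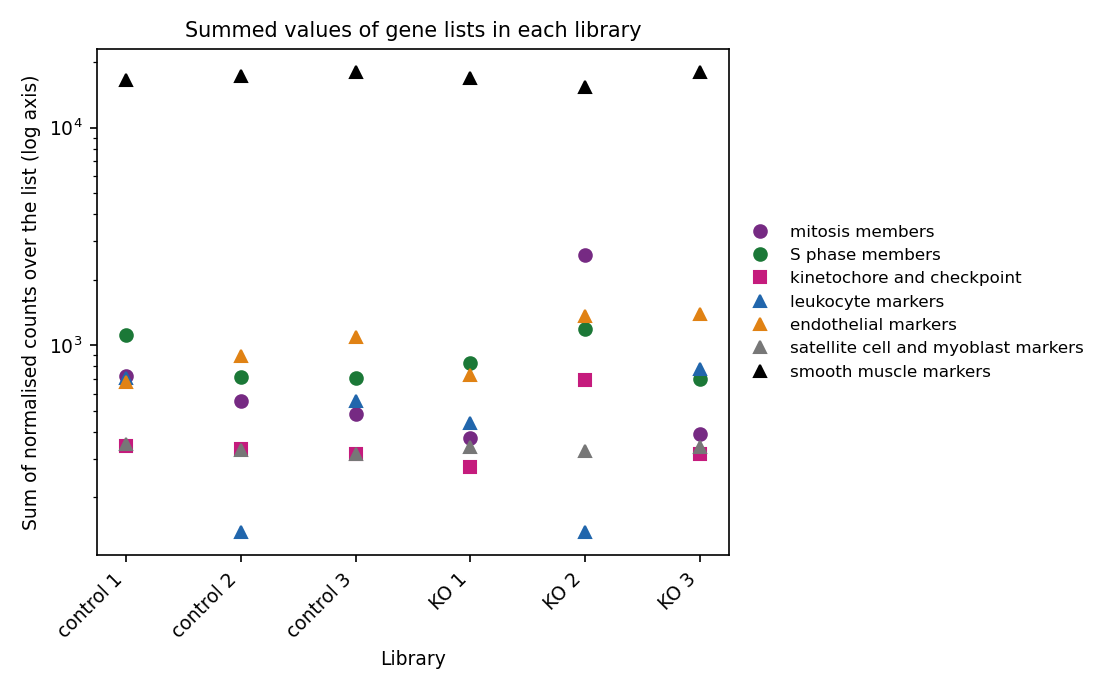
Summed normalised values (vertical axis, log scale) of 7 gene lists in each of the 6 libraries (horizontal axis), with circles for the cell cycle groups, squares for kinetochore and checkpoint genes that are not among the 44, and triangles for cell type markers. In KO library 2 the mitosis sum is 2601 and the kinetochore sum 695, the highest of the 6 libraries for each, whereas the leukocyte sum is 139.

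KO library 2 was also the library with most genes standing clear of the rest. A value over 2 times that of the highest other library was found for 108 of 12735 genes there (0.848%), against 5 to 24 genes in each other library. Of the 108, 27 were among the 44 cell cycle genes, 14 were on the further cell cycle lists and 67 on neither. The mean used as a filter includes KO library 2, so genes low elsewhere could enter the 108 through that library. The 27 include all 9 cell cycle genes that were tested only through it. The lists are not complete, and the 67 include genes of division such as Espl1 and Nek2. In each other library, 0 of the 44 genes stood out in this way.

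The 44 genes also differed in level. Per kilobase of exon, the mean normalised value over the 6 libraries ran from 2.02 to 36.6 in the S phase group (median 9.7, highest in Mcm4) and from 1.22 to 17.6 in the mitosis group (median 4.3, highest in Mki67). By the KEGG pathways given in the deposited table, 18 of the 44 belonged to the cell cycle pathway, 9 of each group, and 7 to DNA replication, all of them S phase genes. In the annotation, 9 of the 44 shared exon bases with a protein-coding gene on the opposite strand, most of all Kif20a with Cdc23 (29.3% of its exon bases), Ube2c with Tnnc2 (22.8%) and Kif4 with Pdzd11 (15.1%). The sources used here do not say whether reads were counted by strand, so part of the values of those genes may come from the partner. Tnnc2, a skeletal muscle fibre gene, had control values of 75, 148 and 216 and KO values of 103, 168 and 154. Ube2c had 15, 16 and 15 against 6, 42 and 20. The ratio of KO library 2 to the mean of the other 5 was 2.92 for Ube2c, the smallest of the mitosis group, and 7.35 for Kif20a. The share of partner reads in these values was not tested, and 31 of the 44 genes shared no exon bases.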

How the data were processed

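RNA of sorted smooth muscle cells was sequenced in 6 libraries, 3 per group, grouped by the labels. The deposited values are a score: read counts that the authors scaled with a single factor for each library, then rounded. Per the submitters' processing notes, Trimmomatic 0.39, STAR 2.6.1d, featureCounts 1.6.5 and DESeq2 1.18.1 were used, with mm10 and GRCm38.p5; parameters are not given in the sources used here. Depth was back-calculated from the worth of 1 read in the lowest values, and limits how well values under about 10 are known. Since the values are not counts, limma 3.58.1 (R 4.3.3, trend, 2-sided, Benjamini-Hochberg) was fitted to log2(value + 1) for 12735 genes with a mean of at least 10, and was tested on simulated data. Fold changes on this scale understate low genes. The 44 genes and all lists were chosen with earlier results of these data known.

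Values in each library are given for well-known members and for the 5 tested members of each group with the smallest unadjusted p, and for up to 3 genes of each further list by the same order. Other members are given by ranges and counts, and those printed beyond this were chosen after their values were seen. Replicate numbers pair the libraries by the data alone, since each same-number correlation (0.31 to 0.59) exceeded 0.1, while no label says what a number marks. Alternatives were the block, the block with each number left out, each library left out, pseudocounts of 0.5 and 5, no filter, upper-quartile scaling and sample quality weights. Exon lengths and overlaps came from the reference annotation, and promoters from RefSeq (GRCm38.p6).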

Additional observations from a re-analysis of the deposited data

How the results depend on the processing

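No cell cycle gene passed the adjusted threshold under any of the 15 alternatives. With the replicate block, 1 gene of all tested was called and 0 cell cycle genes had an unadjusted p under 0.05. With the block and the libraries numbered 1 left out, 61 genes were called, on 1 residual degree of freedom, and 5 cell cycle genes had an unadjusted p under 0.05; Hmgb2 (0.013) and Tyms (0.39) turned positive. With the block and the libraries numbered 2 left out, 1 gene was called (Cd300a), 6 cell cycle genes had an unadjusted p under 0.05, and log2 fold changes turned negative for Bub1b -0.22, Cdc6 -0.16, Cdk1 -0.79, Foxm1 -0.88, Mcm2 -0.41, Mcm5 -0.38, Mcm6 -0.014, Mki67 -0.60, Nusap1 -0.29, Plk1 -0.35, Rrm2 -0.72, Tk1 -0.13, Top2a -0.84 and Tpx2 -0.078. With sample quality weights, 2 genes were called (Cd300a and Ifit1), 8 cell cycle genes had an unadjusted p under 0.05 and Tyms was 0.36. Among all 12735 genes tested, 1305 had an unadjusted limma p under 0.05 with the block. The number was 1514 with the libraries numbered 1 also left out and 836 with those numbered 2 left out. With sample quality weights it was 2228. The cause of the shifts between settings was not tested.

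Leaving out 1 library at a time gave 0 to 4 cell cycle genes at an unadjusted p under 0.05, the 4 without KO library 2 and 1 without KO library 1. Among all genes tested, 174 had an unadjusted limma p under 0.05 without KO library 2 and 1309 without KO library 1. List medians ran from -0.18 to 0.40 (S phase) and -0.48 to 0.84 (mitosis), both lowest without KO library 2. Gene ranges were Cdc6 -0.28 to 0.99, Cdk1 -0.96 to 0.86, Foxm1 -0.82 to 0.56, Hmgb2 -0.21 to 0.046, Mcm2 -0.35 to 0.44, Mcm5 -0.42 to 0.69, Mcm6 -0.057 to 0.31, Mki67 -0.43 to 1.04, Nusap1 -0.033 to 0.94, Plk1 -0.13 to 1.22, Racgap1 -0.19 to 1.26, Rrm2 -0.47 to 0.67, Tk1 -0.14 to 1.27, Top2a -0.82 to 0.68, Tpx2 -0.064 to 1.13 and Tyms -0.41 to 0.30. The pseudocounts of 0.5 and 5, no filter and upper-quartile scaling changed no call and no direction of a gene listed here, but with a pseudocount of 5, 22 of 23 mitosis genes were higher in place of 21. Depth limits the low genes: values under about 4 stand for fewer than 3 reads in the shallowest libraries.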

Other observations

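The 67 genes that stood out in KO library 2 (over 2 times the highest other library) without being on a cell cycle list were looked at after their values were seen. Those lists are not complete, so the 67 still hold genes of division, such as Espl1, Nek2 and Kntc1, and the histone gene Hist1h1d. KO libraries 1 and 3 both lay above each control for 11 of the 67 and below each control for 15. The 27 cell cycle genes that stood out in KO library 2 include 9 tested only through that library. Of the 27, KO libraries 1 and 3 lay above each control for 0 and below for 9. Over all genes tested, both lay below each control for 5.21%, and the share above was not counted. No list was fixed for the 67 genes and none was tested, so the genes named here are single examples.

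Several examples were higher in each KO library than in each control, with KO library 2 far ahead. The guanylate-binding protein gene Gbp4 had control values of 14, 6 and 21 and KO values of 32, 158 and 42 in libraries 1 to 3. Gbp3, of the same family, had control values of 65, 47 and 56 and KO values of 71, 270 and 104. The GTPase gene Igtp had control values of 36, 49 and 48 and KO values of 61, 190 and 67. Iigp1, a related GTPase gene, had control values of 93, 71 and 103 and KO values of 133, 423 and 165. For these genes the groups did not overlap.

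Other examples were high in KO library 2 alone. Tnc, which encodes the matrix protein tenascin C, had control values of 344, 352 and 283 and KO values of 268, 970 and 279. Adam12, a metalloprotease gene, had control values of 48, 59 and 57 and KO values of 13, 202 and 38. For Tnc and Adam12, KO libraries 1 and 3 lay below each control, as for 15 of the 67 genes. The chemokine gene Cxcl9 was at 98 in KO library 2 and at 2 to 11 in the other 5 libraries.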
